A study of Mus musculus with 6 samples.

Results

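Ins2, Iapp, Pdx1, Slc2a2 and Pbx3 are 5 of the 18972 genes that the arrays measured under a single gene name. They were selected on their signals in these same arrays, against negative controls and between cadmium and control cultures, so their levels and differences are given as a description, with no test. Each had 1 transcript cluster, the unit for which the arrays give a value, so no choice between probes was involved. Total RNA of NIT-1 cells was read on 6 arrays. NIT-1 is a mouse beta cell line that was derived from an insulinoma of a NOD mouse carrying a viral large T antigen under an insulin promoter, and each culture is of that 1 line. The 3 cadmium cultures were kept for 24 h with 4 µmol/L CdSO4 after 24 h in the plate, and the 3 control cultures were kept in medium without it. The series describes the dose as one that induces oxidative damage, and the comparison asks what the transcripts of the cells did under it.

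A beta cell stores insulin and amylin in the same granules and releases both when glucose enters the cell and is metabolised. Ins2 encodes preproinsulin, Iapp encodes the precursor of amylin, and Slc2a2 encodes the facilitative glucose transporter typical of rodent beta cells. Pdx1 is a homeodomain transcription factor that is needed to form the pancreas and to maintain beta cells, and the insulin, Iapp and Slc2a2 genes are among its known targets. Pbx3 belongs to the TALE class of homeodomain proteins. PBX proteins bind DNA together with other homeodomain proteins, among them HOX proteins and Pdx1.

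The promoters of the members were set out to show where the homeodomain core motif lies in them, since Pdx1 and the genes it is known to regulate were measured together. RefSeq promoter windows of build GRCm38.p6, from 250 bases before to 50 after the start of the gene, were at hand for 3 of the 5 members, all on the plus strand. They are at chr6:142298175-142298474 for Iapp, chr3:28697653-28697952 for Slc2a2 and chr5:147269847-147270146 for Pdx1. The windows of Ins2 and Pbx3 were not used here. Capitals mark the core motif TAAT, searched on both strands, so that ATTA is its reverse complement.
Iapp: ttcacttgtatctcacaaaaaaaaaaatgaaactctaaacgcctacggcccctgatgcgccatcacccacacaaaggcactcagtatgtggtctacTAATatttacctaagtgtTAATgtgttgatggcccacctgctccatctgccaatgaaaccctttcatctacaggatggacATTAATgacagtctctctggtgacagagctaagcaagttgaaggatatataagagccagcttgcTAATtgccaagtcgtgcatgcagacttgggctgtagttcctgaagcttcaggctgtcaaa
Slc2a2: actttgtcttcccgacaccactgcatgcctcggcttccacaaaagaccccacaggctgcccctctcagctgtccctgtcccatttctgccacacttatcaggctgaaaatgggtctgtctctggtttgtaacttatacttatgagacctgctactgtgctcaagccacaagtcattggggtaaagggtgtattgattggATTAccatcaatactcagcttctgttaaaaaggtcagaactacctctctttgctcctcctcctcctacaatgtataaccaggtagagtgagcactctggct
Pdx1: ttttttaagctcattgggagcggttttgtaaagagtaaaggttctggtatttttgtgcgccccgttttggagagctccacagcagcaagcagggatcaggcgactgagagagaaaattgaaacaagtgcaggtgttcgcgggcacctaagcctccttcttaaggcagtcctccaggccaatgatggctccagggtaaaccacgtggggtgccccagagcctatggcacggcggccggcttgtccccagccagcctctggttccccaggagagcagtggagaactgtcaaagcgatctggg

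The Iapp window held 5 matches to TAAT, of which a pair overlapped in ATTAAT, the Slc2a2 window held 1 and the Pdx1 window 0. TAAT occurred in 58.0% of all 32851 promoter windows of this length, and at least 5 matches occurred in 6.86%. The core TGAT, which PBX proteins prefer, was matched 3 times in the Iapp window, 3 times in Slc2a2 and 2 times in Pdx1, and at least once in 72.9% of all windows. The core of the metal response element was searched as TGCACNC and TGCGCNC, which stand in 12.6% and 15.4% of all windows. The Pdx1 window held 1 match to TGCGCNC, and the Iapp and Slc2a2 windows held 0 to either form. These matches describe letters in a window and were not tested as binding sites.

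Signals are given on the log2 scale, and the base of 2 was inferred from the range of the values. Array medians over the transcript clusters lay between 3.39 and 3.40 on the cadmium arrays and between 3.34 and 3.35 on the control arrays, a mean offset of 0.049. Pairs of arrays correlated across genes at 0.995 to 0.997 within each group and at 0.987 to 0.991 between the groups. Cadmium replicate 1 and control replicate 3 separated from the other 4 arrays along a second principal component that held 15.6% of the variance. The Pbx3 difference is also given without them. The labels call the cultures biological replicates without saying whether they came from separate passages, so spreads and p-values refer to these 6 cultures.

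The level of a gene was judged against 5222 negative control probes read on the same array. Their 95th percentile was between 6.12 and 6.25 on the cadmium arrays and between 6.14 and 6.22 on the control arrays, with a mean of 6.18 that served as a bound for background. The bound is approximate, because the sources used here do not say whether a negative control value combines as many probes as a gene value. Some negative controls were bright, with a highest value of 13.0 to 13.1 on cadmium arrays and 12.7 on control arrays. Over all genes, 13.0% had at least 1 group mean above the bound.

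The hormone genes lay in the range of the negative controls in both groups. Ins2 was measured at 5.27, 5.34 and 5.27 in cadmium cultures, against 5.27, 5.17 and 5.37 in control cultures. The groups overlapped, and both the highest and the lowest value came from control cultures. On each array the Ins2 value exceeded that of 88.3% to 90.4% of the negative controls, and it was 0.78 to 1.04 below their 95th percentile. Its mean was 5.29 ± 0.04 in cadmium and 5.27 ± 0.10 in control cultures (SD, n = 3 each), a difference of 0.02 ± 0.06 (SE). With each array centred on its median that difference was -0.03, so its sign depended on the scaling.

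Iapp was the dimmest of the 5 relative to the negative controls. Its signal was 1.84, 1.75 and 1.69 in cadmium cultures, against 1.93, 1.71 and 2.07 in control cultures. It lay below the median of the negative controls on all 6 arrays, by 0.48 to 0.84, and above only 27.3% to 38.3% of them. The groups overlapped, since control replicate 2 was lower than 2 of the cadmium cultures. The means were 1.76 ± 0.07 in cadmium and 1.90 ± 0.18 in control cultures (SD, n = 3 each), a difference of -0.14 ± 0.10 (SE). The value moved between -0.06 without control replicate 3 and -0.24 without control replicate 2. A value under the middle of the negative controls gives no measure of Iapp RNA, so neither its presence nor a change in it was detectable here.

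Pdx1 and Slc2a2, the transcription factor and the transporter, also lay below the bound on every array. Pdx1 was at 4.18, 4.30 and 4.37 in cadmium cultures, against 4.31, 4.17 and 4.26 in control cultures. Its groups overlapped, with the highest value in cadmium replicate 3 and the lowest in control replicate 2. The means of 4.28 ± 0.09 and 4.25 ± 0.07 (SD, n = 3 each) differed by 0.04 ± 0.07 (SE) as deposited and by -0.01 with arrays centred. Slc2a2 was at 3.79, 3.79 and 3.87 in cadmium cultures, against 3.80, 3.70 and 3.77 in control cultures. The groups overlapped through control replicate 1, which was above 2 of the cadmium cultures. The means were 3.82 ± 0.05 in cadmium and 3.76 ± 0.05 in control cultures (SD, n = 3 each), and the difference of 0.06 ± 0.05 (SE) was 0.02 with arrays centred. Pdx1 exceeded 78.4% to 81.4% of the negative controls and Slc2a2 71.3% to 75.1%.

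**Figure D1:**
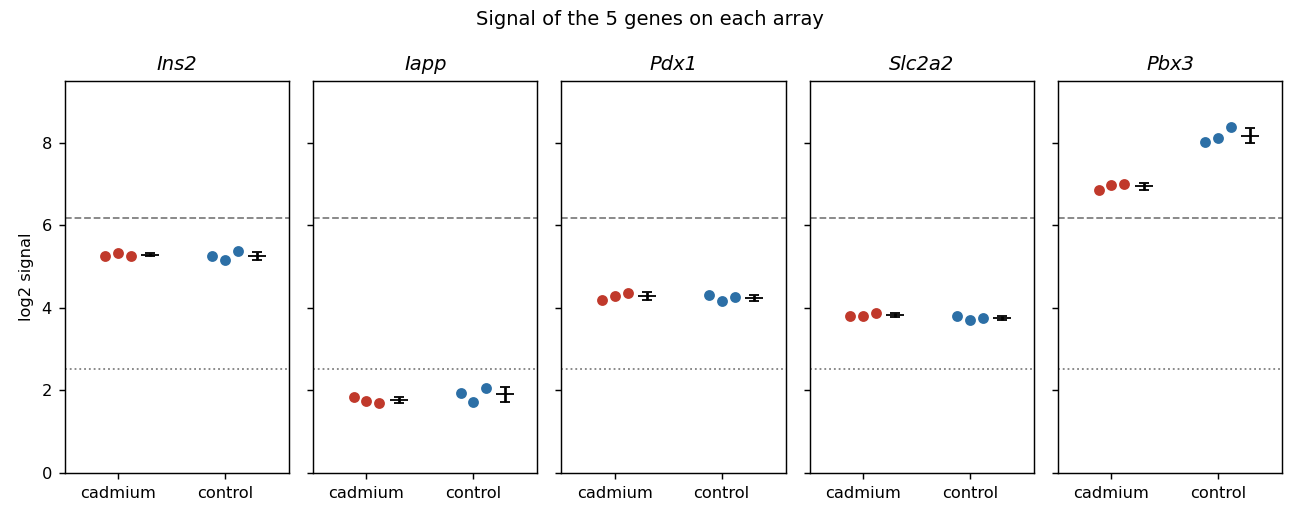
Log2 signal of each of the 5 genes on the 3 cadmium arrays (red) and the 3 control arrays (blue), with black marks for mean and SD. The dashed line is the mean 95th percentile of the negative controls (6.18) and the dotted line their mean median. Only Pbx3 lies above the dashed line, and only its groups are separate.

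The differences of the 4 dim genes can be placed beside those of the rest of the table. The median difference over all 18972 genes was 0.044 as deposited and -0.004 with arrays centred. The absolute difference of Ins2 exceeded that of 11.0% of all genes, that of Pdx1 18.6%, that of Slc2a2 32.0% and that of Iapp 62.7%. Because these probes read near background, a change in the RNA could appear smaller in the signal, and the small differences do not show that the RNA was unchanged. The 23 background probe sets that the array names by GC number bear on values of this size. Of these sets, 10 were higher on every cadmium array than on any control array and 0 were lower. For the negative controls the cadmium minus control difference was -0.036 in the median and -0.02 in the 95th percentile. The 10 sets numbered 16 and above, a division made after their values were seen, were higher with cadmium by 0.16 to 0.24 in the mean, and 9 of them on every cadmium array. Ins2 exceeded 16 to 18 of the 23 sets, Pdx1 14 to 15, Slc2a2 13 to 14 and Iapp 10 to 11. Their part in the differences of these genes was not tested.

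Pbx3 stood apart from the other 4 genes in level and in difference. It was at 6.85, 6.97 and 7.01 in cadmium cultures, against 8.02, 8.11 and 8.39 in control cultures. All 3 cadmium cultures lay below all 3 control cultures, and the lowest control value was 1.01 above the highest cadmium value. This was the case for 1 of the 5 members, and for 35.9% of all genes in either direction or 13.0% with cadmium lower. The means were 6.95 ± 0.08 in cadmium and 8.17 ± 0.19 in control cultures (SD, n = 3 each), a difference of -1.23 ± 0.10 (SE) that corresponds to a 2.34-fold lower signal with cadmium. Centring the arrays gave -1.28. Every array had Pbx3 above the 95th percentile of its negative controls, by 0.60 to 0.88 in cadmium and by 1.82 to 2.24 in control cultures, and above all 23 GC-numbered background sets. Less of the transcript per cell and fewer cells that carry it cannot be told apart in bulk RNA. Of all 18972 genes 8 had a lower difference than Pbx3, which is the contrast by which the gene was picked.

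That gap was wider than the range of 0.16 within the cadmium cultures and of 0.36 within the control cultures. Control replicate 3 was the brightest Pbx3 array and cadmium replicate 1 the dimmest, and these are the arrays that stood apart from the rest. Without both, the Pbx3 difference was -1.07 ± 0.06 (SE), and leaving out any 1 array gave -1.30 to -1.12.

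**Figure D2:**
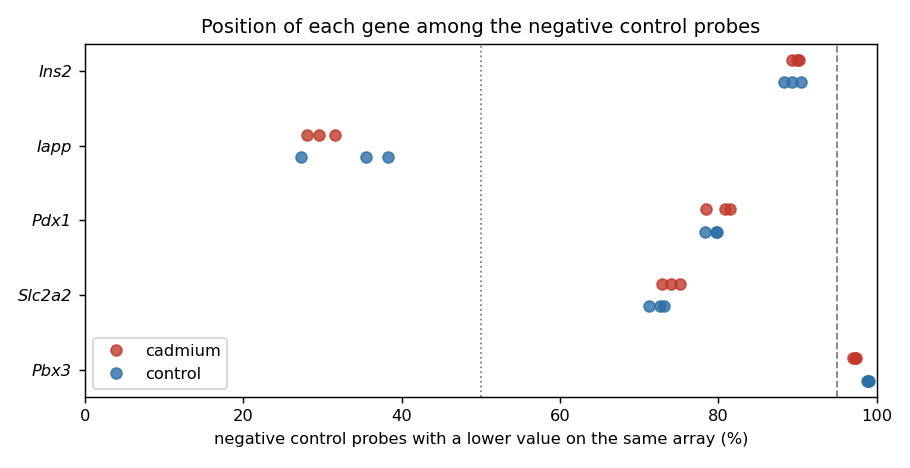
Share of negative control probes with a lower value than the gene, in percent, for each cadmium array (red) and control array (blue). The dashed line is at 95% and the dotted line at 50%. Iapp lies at 27.3% to 38.3%, Ins2, Pdx1 and Slc2a2 at 71.3% to 90.4%, and Pbx3 at 97.0% to 99.0%.

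The label of the cells as beta cells was set against 12 beta cell marker genes. Of these, 7 were measured under a single name, namely the 4 dim members with Nkx6-1, G6pc2 and Abcc8, and 0 of the 7 exceeded the 95th percentile of the negative controls on any array. Nkx6-1, a beta cell transcription factor, was at 5.08 ± 0.15 in cadmium and 4.85 ± 0.14 in control cultures. Abcc8, a subunit of the channel that closes when glucose is metabolised, was at 5.13 ± 0.02 in cadmium and 5.04 ± 0.05 in control cultures (SD, n = 3 each). Ins1, Mafa, Neurod1, Pcsk1 and Slc30a8 were not analysed here. The 4 members among the 7 had been selected on these levels, so only Nkx6-1, G6pc2 and Abcc8 are separate from that choice, and over all genes only 13.0% had a group mean above the bound. Of 14 hormone processing and granule genes measured, 2 had a group mean above the bound. Ptprn was at 7.24 ± 0.11 in cadmium and 6.34 ± 0.20 in control cultures (SD, n = 3 each). Pcsk1n, named after its values were seen, was at 6.38 ± 0.11 in cadmium and 6.49 ± 0.11 in control cultures (SD, n = 3 each).

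Of the other genes around the members, 13 lists held 218 genes, and 120 of these were measured with a gene name of their own. Each was tested with limma over all 18972 genes, where 12.2% passed a Benjamini-Hochberg adjusted p of 0.05, 6.47% higher and 5.72% lower with cadmium. Of the called genes 53.0% were higher as deposited, and 35.5% with arrays centred. Of the 120 genes 11 were higher and 11 lower, or 9.2% in each direction. Leaving out cadmium replicate 2 or 3 or control replicate 1 or 2 brought the 22 calls to 13, 13, 14 and 12. Where only genes above the bound were tested, most of the 120 were left out, and 9 of those kept were called. Kept were 5 genes that mature beta cells keep low or that mark their loss of identity. With them came 2 glucose transporters, 2 hormone processing and granule genes, and 1 gene each of the HOX, glucose sensing, insulin and IGF, and stromal lists. The remaining lists kept 0. The same filter called 35.6% of the 2467 genes that it kept.

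Among the partners and relatives of Pbx3, 0 of 9 TALE homeobox and Pbx-interacting genes passed, and 0 had an unadjusted p under 0.05. Their differences ran from -0.09 to 0.10, with a median of 0.04 as deposited and -0.01 with arrays centred. Pbx4, the other PBX gene measured, was at 5.11 ± 0.03 in cadmium and 5.11 ± 0.08 in control cultures, and Meis3, a cofactor of PBX proteins, at 5.52 ± 0.07 and 5.53 ± 0.05 (SD, n = 3 each). All 9 had both means below the bound. Whether Pbx3 differed from these genes was not tested. Of 15 HOX genes measured, Hoxa4 rose by 0.37 ± 0.06 (SE, limma adjusted p = 0.0107) below the bound, and the median difference of the list was 0.02. With arrays centred that median was -0.03 and 3 of the 15 passed, with Hoxa5 and Hoxd8 lower (limma adjusted p = 0.0413 and 0.0293), genes named here after their values were seen.

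Of 13 beta cell transcription factors other than Pdx1, 1 passed. St18, a zinc finger factor, fell to 3.58 ± 0.01 in cadmium cultures, against 3.82 ± 0.05 in control cultures (limma adjusted p = 0.0245), and its call held in 1 of the 6 fits that left out an array. The median difference of the list was 0.09 as deposited and 0.04 with arrays centred, and 0 of the 13 genes had a mean above the bound.

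Among 9 facilitative glucose transporters other than Slc2a2, 3 fell and 0 rose. Slc2a1, the broadly expressed transporter, was at 7.87, 7.86 and 7.84 in cadmium cultures, against 8.53, 8.73 and 8.63 in control cultures. The groups were separate and above the bound, and the signal was 1.71-fold lower with cadmium (limma adjusted p = 0.00149). Slc2a3, known best as a neuronal transporter, fell to 4.98 ± 0.05 in cadmium cultures, against 5.55 ± 0.09 in control cultures, below the bound in both (limma adjusted p = 0.0024). Slc2a8, an intracellular transporter, was 1.19-fold lower with cadmium (limma adjusted p = 0.0448), and that call held in only 1 of the 6 fits that left out an array. The median of the 9 differences was -0.06, or -0.11 with arrays centred.

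**Figure D3:**
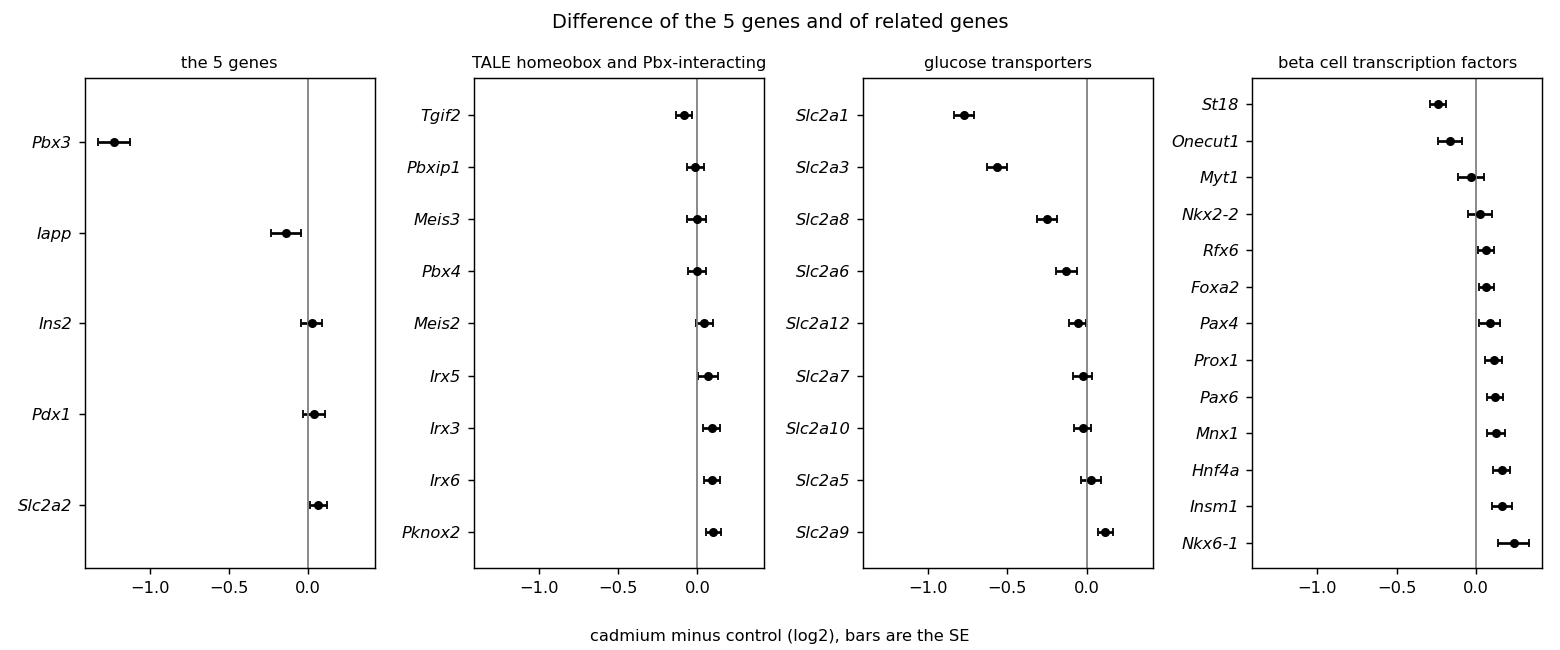
Cadmium minus control difference on the log2 scale, with the SE from limma, for the 5 genes and for 3 lists of related genes. Pbx3 lies at -1.23, while the 9 TALE and Pbx-interacting genes lie between -0.09 and 0.10, and Slc2a1 and Slc2a3 are the lowest of the transporters.

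In the list of glucose sensing and coupling 1 of 8 measured genes rose and 1 fell, with a median difference of 0.04 that was -0.01 with arrays centred. Kcnj11, the pore subunit of the channel that Abcc8 belongs to, rose by 0.29 ± 0.07 (SE, limma adjusted p = 0.0413), below the bound. It lost its call with arrays centred (limma adjusted p = 0.0665), and the call held in 1 of the 6 fits that left out an array. Cacna1c, a voltage-gated calcium channel, fell by 0.46 ± 0.07 (SE, limma adjusted p = 0.00778), with the cadmium mean below the bound.

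In the list of hormone processing and granule genes 3 of 14 rose and 1 fell, with a median difference of 0.07, or 0.03 with arrays centred. Pam, the enzyme that amidates peptides such as amylin, fell to 5.16 ± 0.04 in cadmium cultures, against 5.72 ± 0.07 in control cultures (SD, n = 3 each, limma adjusted p = 0.00183), below the bound in both. The granule genes Ptprn and Vgf rose by 0.90 ± 0.11 and 0.88 ± 0.10 (SE), and only Ptprn had both means above the bound. Snap25, a SNARE protein of exocytosis, rose by 0.23 ± 0.05 (SE, limma adjusted p = 0.031), and its call held in 0 of the 6 fits that left out an array.

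Among relatives of the hormone genes, 1 of 8 genes of the insulin and IGF family with its receptors passed. Insr, the insulin receptor, was at 5.15, 4.98 and 5.01 in cadmium cultures, against 5.52, 5.65 and 5.52 in control cultures. It fell by 0.52 ± 0.07 (SE, limma adjusted p = 0.00408) below the bound, and the call held in all 6 fits that left out an array. Igf2, Insl5 and Rln3, the other hormones of that family measured, had differences between -0.03 and 0.24 and did not pass. Of 5 measured genes of the calcitonin family, to which Iapp belongs, 0 passed and 0 had an unadjusted p under 0.05. The brightest of them was Adm, the adrenomedullin gene, at 5.88 ± 0.06 in cadmium and 5.82 ± 0.35 in control cultures (SD, n = 3 each). Among 5 other islet and gut hormones Tac1, a tachykinin precursor, rose by 0.51 ± 0.11 (SE, limma adjusted p = 0.023) below the bound, and the call held in 2 of the 6 fits that left out an array.

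Of 15 measured genes that mature beta cells keep low or that mark their loss of identity, 2 rose and 2 fell, with a median difference of 0.10, or 0.05 with arrays centred. Acot7, an acyl-CoA thioesterase, rose by 0.67 ± 0.09 (SE, limma adjusted p = 0.00448), and Zyx, a focal adhesion protein, by 0.59 ± 0.12 (SE, limma adjusted p = 0.0194), both with the control mean below the bound. Nfib, a transcription factor, was 1.40-fold lower with cadmium (limma adjusted p = 0.00272), and Ldha, lactate dehydrogenase A, fell by 0.39 ± 0.07 (SE, limma adjusted p = 0.0156) below the bound. The calls of Zyx and Ldha each held in 2 of the 6 fits that left out an array.

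Markers of other pancreatic cells were read in the same way. Of 9 acinar markers 3 rose, Ctrb1, Cela2a and Rbpjl, by 0.19 to 0.26, with 0 of the 9 above the bound and 0 of the 3 calls kept with arrays centred. The summed level of the 9 as deposited was 36.8 to 37.1 in cadmium and 35.9 to 36.2 in control cultures. Their median difference was 0.03, or -0.02 with arrays centred. Of the 2 duct markers measured Cftr, a chloride channel, fell by 0.42 ± 0.07 (SE, limma adjusted p = 0.0101) below the bound. Muc1, the other duct marker, was higher with cadmium by 0.12 ± 0.05 (SE), also below the bound, and did not pass (limma adjusted p = 0.152). Of 8 stromal, endothelial and immune markers Col3a1, a fibrillar collagen gene, fell, and it was the only one of the 8 above the bound. Their summed level was 35.6 to 36.8 in cadmium and 37.0 to 37.2 in control cultures, and it includes Col3a1 with a difference of -1.01. The median difference of the 8 was 0.01, or -0.04 with arrays centred. Of the other 7 markers 0 passed, with 2 at an unadjusted p under 0.05 and differences from -0.27 to 0.20. The part of these cell type markers in the Pbx3 difference was not tested.

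The genes whose pattern over the 6 arrays was most like that of Pbx3 were Fat1, Col3a1, Tnc, Pdgfc and Mir505. They were the 5 highest Pearson correlations with Pbx3, at 0.995, 0.990, 0.984, 0.975 and 0.973, among 197 genes with a group mean above the bound and an SD over the arrays of at least 0.5. Across these arrays such a correlation mostly reflects the difference between the groups, with 12 of the 197 above 0.95 and 15 below -0.95. Fat1, Pdgfc and Mir505 had a mean above the bound in control cultures only. Fat1, an atypical cadherin, was at 5.40, 5.65 and 5.73 in cadmium cultures, against 6.82, 6.93 and 7.08 in control cultures. As with Pbx3, its lowest array was cadmium replicate 1 and its highest control replicate 3. Col3a1 was at 7.87, 8.21 and 8.10 in cadmium cultures, against 8.94, 9.06 and 9.20 in control cultures, and had the same lowest and highest array. Tnc, the matrix glycoprotein tenascin C, averaged 7.05 ± 0.06 in cadmium and 8.05 ± 0.03 in control cultures (SD, n = 3 each). Pdgfc, a growth factor gene, averaged 6.03 ± 0.12 in cadmium and 7.74 ± 0.02 in control cultures (SD, n = 3 each).

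**Figure D4:**
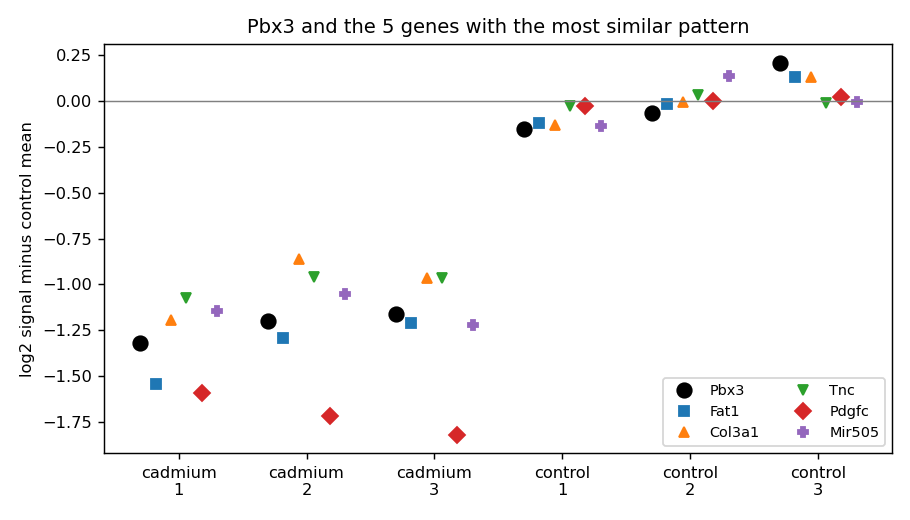
Log2 signal of Pbx3 (black circles) and of the 5 genes most correlated with it, each minus its own mean over the control arrays, for cadmium arrays 1 to 3 and control arrays 1 to 3. In all 6 genes every cadmium value lies below every control value, and cadmium replicate 1 is the lowest array for Pbx3, Fat1, Col3a1 and Tnc.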

How the data were processed

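Total RNA of 6 NIT-1 cultures was labelled with biotin and read on 1 array each, per the labels. The deposited table of the authors holds 1 value per transcript cluster or control probe, taken here as log2 signals. The base is inferred from the range. The sources used here name no background correction, normalization or software. The values were used unscaled. Of 46478 rows, 39746 were transcript clusters. Gene names came from the platform annotation, updated through RefSeq (GRCm38.p6): 19205 clusters had 1 gene, 940 several and were not named, and 19601 none. The brightest probe stood for each of 18972 genes. No column of values was without a sample.

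All genes were fitted with limma 3.58.1 in R 4.3.3 (lmFit, eBayes, a single term for group), and p-values were adjusted over all genes by Benjamini-Hochberg with a threshold of 0.05. The fit was tested on simulated data. The members, the lists and the rule for named genes were chosen with earlier results of these data known. In each list up to 4 called genes with the lowest adjusted p were named, or the brightest where none passed, with the relatives of each member and the 5 genes most correlated with Pbx3. Alternatives changed the scaling, filter, probe choice, variance model, array weights, threshold, replicate block and the arrays included. The number of arrays limits the precision. Figures were drawn with matplotlib 3.10.9.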

Additional observations from a re-analysis of the deposited data

How the results depend on the processing

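The Pbx3 difference stayed between -1.31 and -1.07 under all alternatives. It moved by more than its pooled SD within the groups (0.146) only without both arrays that stood apart, to -1.07, a setting chosen after seeing the data. Without control replicate 3 it was -1.12, a move larger than its SE of 0.10. The differences of Iapp (-0.24 to -0.06) and Slc2a2 (0.01 to 0.09) kept their sign, while those of Ins2 (-0.03 to 0.08) and Pdx1 (-0.02 to 0.09) did not. Slc2a2 moved to 0.016 with arrays centred and 0.008 after quantile normalization. The filter at the bound left out Ins2, Iapp, Pdx1 and Slc2a2, and the filter at the median level left out Iapp and Slc2a2.

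Against the median of the negative controls in place of their 95th percentile, Ins2 lay 2.76 above instead of -0.90, Pdx1 1.74 instead of -1.91 and Slc2a2 1.26 instead of -2.39. Iapp remained below it at -0.69 and Pbx3 lay 5.04 above. Signal near background limits what the 4 dim genes can show.

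The 2313 genes called over the table were 878 of 2467 when only genes above the bound were tested (850 with arrays also centred, added after seeing the data). They were 1388 with the replicate block, 868 at an adjusted p under 0.01, and 1142 to 2361 with 1 array left out. The share of higher genes among them was 53.0% as deposited, 35.5% with arrays centred and 39.9% after quantile normalization. The 22 calls in the lists were 9, 9, 14 and 10 under the first 4 of these settings and 12 to 18 with 1 array left out. Without both arrays that stood apart the counts were 2894 and 20. Titles number the replicates of both groups alike. Deviations of same-numbered arrays from their group means correlated at -0.108, 0.057 and -0.108. With only 3 arrays per group, these values cannot decide whether the numbers mark pairs. A filter left fewer genes to test, and leaving out arrays left fewer arrays. The causes of the changes in count were not tested.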
